A study of Homo sapiens with 12 samples.

Results

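The 9 genes described here encode subunits of the Polycomb repressive complexes. They are EZH1, EZH2, SUZ12, EED and JARID2 of PRC2, and RNF2, BMI1, CBX2 and CBX8 of PRC1. They were picked by name, and were found as 9 of the 58278 gene rows that each library lists. All 9 passed the filter on low counts that left 24342 genes for testing. RNA-seq was performed on HK2, a cell line grown from the proximal tubule epithelium of a human kidney and immortalized, so that all libraries come from 1 line. There were 6 groups of 2 biological replicates. Ctrl cells were untreated and TN cells received 5 ng/mL TNF-α for 3 h. PRTN and BUTN cells were pretreated for 24 h with the short-chain fatty acids (SCFAs) propionate at 15 mM and butyrate at 3 mM, respectively, before the same TNF-α, and TNPR and TNBU cells received TNF-α first and then the same SCFA for 24 h. The doses of the SCFAs differ, no group with an SCFA alone was analysed here, and the TN cells were collected earlier than the TNPR and TNBU cells, so that for these latter groups SCFA and time in culture cannot be told apart. TNPR and TNBU were also collected longer after TNF-α was added than PRTN and BUTN. Order of treatment and time since TNF-α cannot be told apart there. A general treatment note in the labels also names thapsigargin and JQ1, which no library's own label does.

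Polycomb complexes keep developmental and cell-type genes silent. PRC2 carries the histone methyltransferase EZH2 or its paralog EZH1, which methylates lysine 27 of histone H3 and needs SUZ12 and EED to be active, while JARID2 is a cofactor that helps to bring PRC2 to chromatin. PRC1 carries a pair of RING proteins (RNF2 or RING1 with a PCGF protein such as BMI1) that ubiquitinates histone H2A, and in canonical PRC1 a CBX protein reads the methyl mark through its chromodomain. In tubular epithelium EZH2 has mainly been studied in injury and fibrosis, and butyrate, and more weakly propionate, are known as inhibitors of histone deacetylases.

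Expression is given as CPM, the expected count scaled to library size with TMM factors. A gene was called at a fold change over 1.5 with an adjusted p under 0.05 (limma-voom, Benjamini-Hochberg over 24342 genes), and "rose" and "fell" are used for such calls. The 4 SCFA comparisons share the same TN libraries and are therefore not independent. Libraries held 27269986 to 33851130 expected counts, and replicates differed by a median of 0.113 to 0.222 on the log2 scale, most in TNPR and TNBU. KRT8 and KRT18, epithelial keratins, were abundant in all 12 libraries (lowest 701 and 354 CPM). Of 12 tubular markers, 7 rose and 3 fell in all 4 SCFA comparisons (58.3% and 25%, against 18.4% and 11.9% of all tested genes). The renal factor PAX8 was among those that fell, from 392 and 414 CPM for TN to between 128 and 160 CPM. Brush border genes went both ways. ANPEP and LRP2, with at most 3 counts and 0 counts in Ctrl and TN, rose to 31 to 87 and 12 to 31 counts with SCFA. Both passed the low-count filter only through the SCFA libraries. The tubular marker AQP1 went from 10 to 21 counts in Ctrl and TN to 187 to 522 with SCFA. The far more abundant GGT1 (60.0 to 221 CPM over the 12 libraries) fell, with a mean log2 difference of -1.52 over the 4 comparisons. CDH2 was the other marker that fell. Of the 10 leukocyte markers 6 could be tested, and 3 or 4 of them rose in each SCFA comparison. CD14 had 17 to 28 counts in Ctrl and TN and 72 to 122 with SCFA, and CSF1R 4 to 11 and 10 to 42, while MS4A1 was at 0 in 12 libraries and PTPRC reached at most 5 counts. The summed level of the leukocyte markers, mostly CD68 (23.1 to 48.8 CPM), was 31.0 to 36.7 CPM in Ctrl and TN. With SCFA it was 29.1 to 36.8 CPM in PRTN and TNPR and 42.8 to 53.9 CPM in BUTN and TNBU. The 10 endothelial and fibroblast markers summed to 53.0 to 60.0 CPM in Ctrl and TN and to 208 to 259 CPM with SCFA, mostly COL1A1 and LUM, and 7 or 8 of the 9 tested rose and 1 fell. In all 4 comparisons 7 rose and 1 fell (77.8% and 11.1%, against 18.4% and 11.9% of all tested genes). Markers near a count of 0 in Ctrl and TN, such as VWF and PECAM1, could hardly fall. The share that rose can therefore not be read as a result about these cell types. Among the endothelial genes, CDH5 went from 2 to 7 counts in Ctrl and TN to 30 to 55 with SCFA, VWF from at most 2 to between 23.5 and 40, and PECAM1 from at most 2 to between 15 and 31, while KDR never exceeded 3 counts. The part of these marker genes in the differences below was not tested, and in bulk RNA fewer cells of a type and less RNA per cell cannot be told apart.

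Promoter sequences (RefSeq, GRCh38.p14, 250 bases before to 50 after a start) were at hand for 7 of the 9 members, with 10 windows in all, and not for CBX2 and CBX8. JARID2 is shown because it had the largest difference of the members, with its 2 annotated starts at chr6:15245819-15246118 and chr6:15248605-15248904 on the + strand, and EZH2 because it is the main catalytic subunit, with its first start at chr7:148884242-148884541 on the - strand. Capitals mark matches on either strand to the CCAAT box, to the cyclic AMP response element TGACGTCA and to 4 spellings of the E2F site, TTTGGCGC, TTTCCCGC, TTTCGCGC and TTTGCCGC. None of these matches overlapped.
JARID2 first start: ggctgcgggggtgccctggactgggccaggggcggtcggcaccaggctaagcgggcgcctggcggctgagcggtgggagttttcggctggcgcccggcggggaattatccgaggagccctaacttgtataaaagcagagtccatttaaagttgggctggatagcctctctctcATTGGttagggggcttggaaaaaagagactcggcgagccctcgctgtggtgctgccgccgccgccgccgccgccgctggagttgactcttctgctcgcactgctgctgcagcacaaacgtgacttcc
JARID2 second start: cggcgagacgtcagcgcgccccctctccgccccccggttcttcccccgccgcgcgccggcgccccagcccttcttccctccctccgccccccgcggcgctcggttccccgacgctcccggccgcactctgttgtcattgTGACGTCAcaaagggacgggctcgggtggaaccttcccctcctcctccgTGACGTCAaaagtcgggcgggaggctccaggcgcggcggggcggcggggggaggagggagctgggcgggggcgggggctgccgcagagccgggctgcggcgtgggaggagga
EZH2 first start: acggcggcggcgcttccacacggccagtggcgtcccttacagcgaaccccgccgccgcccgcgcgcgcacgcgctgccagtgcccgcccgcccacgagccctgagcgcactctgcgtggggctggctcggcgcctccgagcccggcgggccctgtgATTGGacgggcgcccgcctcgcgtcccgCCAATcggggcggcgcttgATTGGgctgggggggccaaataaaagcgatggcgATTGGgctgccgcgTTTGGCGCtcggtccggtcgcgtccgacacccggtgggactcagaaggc
The second JARID2 window held TGACGTCA at 2 places, a motif found in 1.84% of the 34943 promoter windows. The EZH2 window shown held 4 CCAAT boxes (present in 34.6% of windows) and 1 E2F spelling (3.3% of windows). The second EZH2 window (chr7:148883436-148883735, not shown) held none of the 3 motifs. An E2F spelling was also present in the EZH1 and SUZ12 windows, and none of the 3 motifs in those of RNF2 and BMI1. These are matches of letters only, with no measurement of binding.

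TNF-α alone left the members close to Ctrl. In TN vs Ctrl 0 of 9 members were called up and 0 called down, where 0.764% and 0.534% of all tested genes were, and at any fold change with an adjusted p under 0.05 the counts were also 0, against 2.26% and 1.25% of all genes higher and lower. At an unadjusted p under 0.05 there were 2, RNF2 and CBX8. RNF2, the catalytic RING protein of PRC1, stood at 51.4 and 52.1 CPM for Ctrl and at 63.2 and 59.3 CPM for TN, a log2 difference of 0.24 ± 0.07 (SE) with limma adjusted p = 0.0728, and 0.0483 to 0.393 under the alternatives, the lowest with DESeq2. CBX8 was 0.19 lower on the log2 scale (adjusted p = 0.213). The 95% confidence intervals of the 9 members in this comparison ran from 0.778-fold to 1.31-fold.

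**Figure D1:**
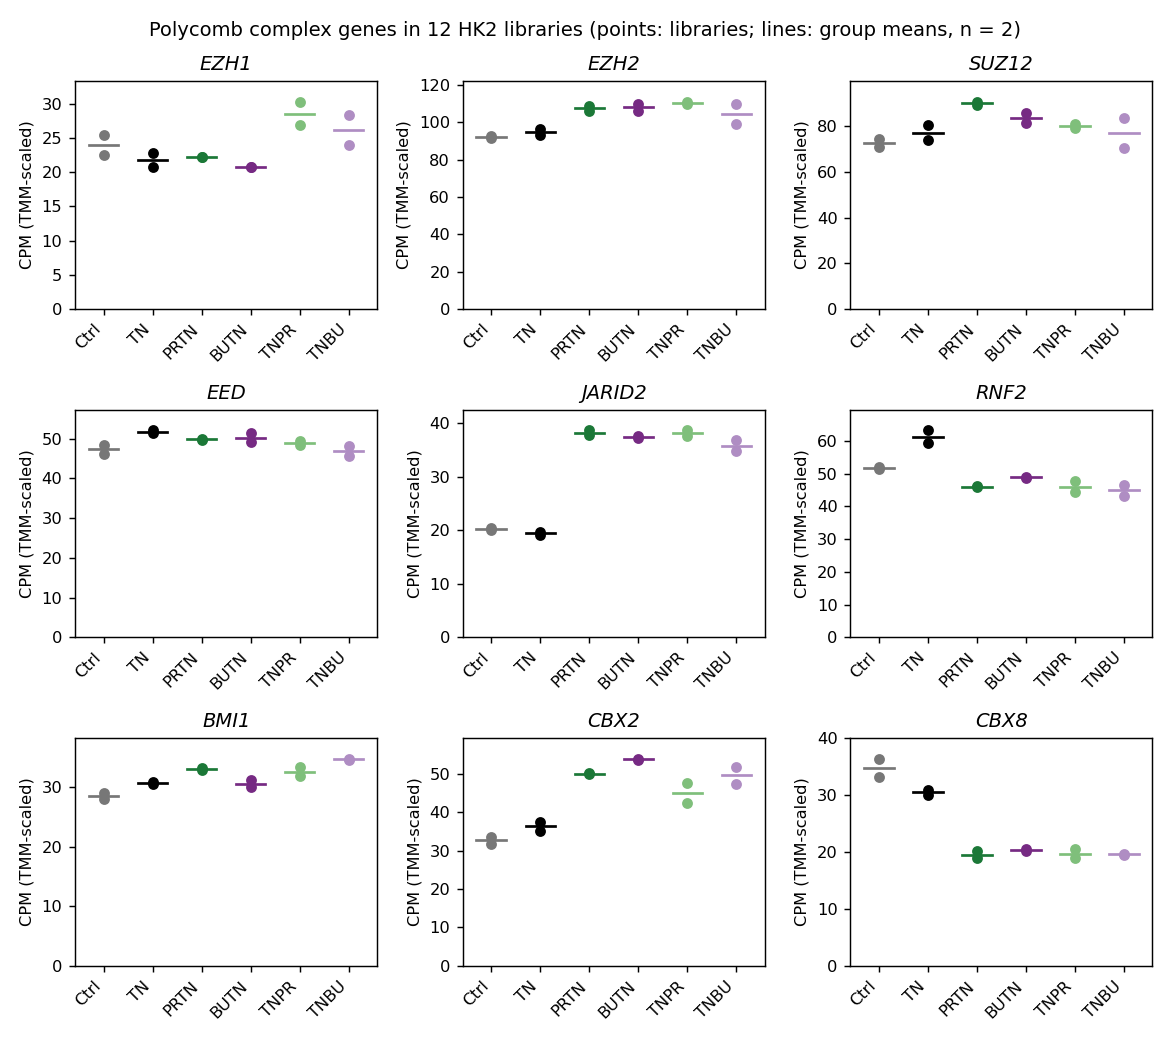
TMM-scaled CPM of each Polycomb complex gene (vertical axes from 0) in the 12 libraries by group, with points for libraries and lines for the means of 2. JARID2 lies between 34.8 and 38.7 CPM in the 8 SCFA libraries and between 19.2 and 20.4 CPM in the other 4, and CBX8 shows the opposite order.

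With either SCFA, before or after TNF-α, JARID2 rose, CBX8 fell, and the other members differed from TN by less than 1.5-fold. Each of PRTN, BUTN, TNPR and TNBU against TN had 1 of 9 members called up and 1 called down, which is 11.1% in each direction. Of all tested genes, PRTN had 23.9% called up and 16.7% down, BUTN 23.1% and 14.8%, TNPR 24.9% and 16.9%, and TNBU 25% and 16.5%. The share of members called was thus no higher than the background in any of these comparisons. Over all 4 comparisons together, 18.4% of tested genes were up in each and 11.9% down in each, against 1 of 9 members in either direction. The median log2 difference of the members from TN was 0.11, -0.01, 0.09 and 0.14 for PRTN, BUTN, TNPR and TNBU, and that of all tested genes 0.09, 0.08, 0.12 and 0.09.

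At any fold change with an adjusted p under 0.05, more members were set apart from TN. In PRTN 4 were higher (EZH2, SUZ12, JARID2, CBX2) and 2 lower (RNF2, CBX8), with 30.6% of all genes higher and 25.8% lower. In BUTN 3 were higher (EZH2, JARID2, CBX2) and the same 2 lower, with 29.7% and 25.4% of all genes. In TNPR 4 were higher (EZH1, EZH2, JARID2, CBX2) and RNF2 and CBX8 lower, with 31.6% and 26%, and in TNBU 4 were higher (EZH1, JARID2, BMI1, CBX2) and RNF2 and CBX8 lower, with 31.3% and 26%. JARID2 higher, RNF2 lower and CBX8 lower held in all 4 comparisons when either library of a compared group was left out. CBX2 did so except in TNPR, where its adjusted p was over 0.05 without TN replicate 1 and without TNPR replicate 1. The calls of EZH1, EZH2, SUZ12 and BMI1 at this looser rule did not all hold in this way. Leaving out any 1 of the 4 libraries compared left 2 members higher in PRTN, JARID2 and CBX2, and the same 2 in BUTN, so that EZH2 and SUZ12 were past the rule in PRTN only with all 4 libraries, at log2 differences of 0.13 to 0.18 and 0.13 to 0.26 without 1 of them. The number higher was 1 to 3 in TNPR, lowest without TNPR replicate 1, and 2 to 4 in TNBU, with 2 without TN replicate 1, without TN replicate 2 and without TNBU replicate 2. In TNBU it was also 2 with DESeq2, without a filter on low counts and with only the groups compared in the fit.

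**Figure D2:**
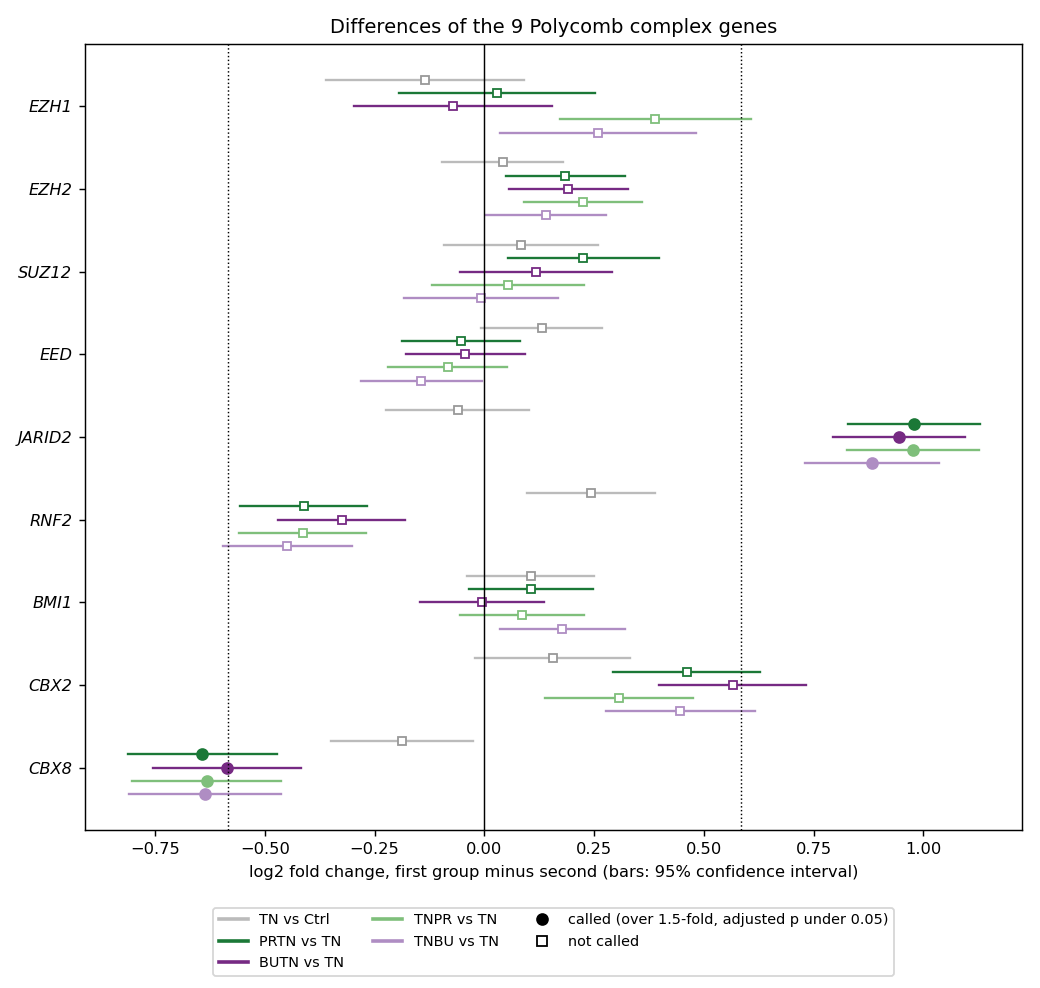
log2 fold changes (horizontal axis, first group minus second) of the 9 members in TN vs Ctrl and in the 4 SCFA groups against TN, with 95% confidence intervals. Filled circles are called, open squares are not, and dotted lines mark 1.5-fold. JARID2 lies right and CBX8 left of these lines in all 4 SCFA comparisons, with CBX8 in BUTN almost on the line.

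The catalytic subunits of PRC2 changed little. EZH2, the methyltransferase of dividing cells, had 92.4 and 91.4 CPM for Ctrl, 96.2 and 93.0 for TN, 106 and 109 for PRTN, 106 and 110 for BUTN, 110 and 111 for TNPR, and 98.8 and 110 for TNBU. Every SCFA library was above both TN libraries. The log2 differences from TN were 0.18, 0.19, 0.22 and 0.14 for PRTN, BUTN, TNPR and TNBU (SE 0.06 in each), with limma adjusted p of 0.0224, 0.0193, 0.00765 and 0.0731, and the upper bounds of their intervals were at most 0.36. EZH2 is known to be expressed with the cell cycle. Of 20 proliferation genes, 8 (40%, against 11.9% of all tested genes) fell in all 4 SCFA comparisons and 1 (5%, against 18.4%) rose, RRM2, a ribonucleotide reductase subunit, from a mean of 282 CPM in TN to 532 to 603 CPM. The largest falls were in the cyclin CCNB1 (172 CPM in TN, 51.7 to 70.6 with SCFA), the mitotic kinase PLK1 (125 CPM, 41.6 to 56.3) and the cyclin CCNA2 (118 CPM, 47.2 to 55.6). In PRTN, BUTN, TNPR and TNBU, 3, 1, 3 and 2 genes of the list rose and 8 fell in each. Of all tested genes 23.1% to 25% were called up and 14.8% to 16.9% down. The genes that rose besides RRM2 were E2F1 in PRTN, TNPR and TNBU and E2F2 in PRTN and TNPR. Not all of the E2F1 and E2F2 calls held under the alternatives. The list summed to 4563 to 4698 CPM in Ctrl and TN and to 3612 to 3883 CPM with SCFA. How this bears on EZH2 was not tested.

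EZH1, the paralog of EZH2 that resting cells also use, had the largest difference of the 9 members between SCFA after and SCFA before TNF-α. It had 25.4 and 22.5 CPM for Ctrl, 22.8 and 20.8 for TN, 22.2 and 22.2 for PRTN, 20.8 and 20.7 for BUTN, 30.3 and 26.8 for TNPR, and 24.0 and 28.3 for TNBU. Libraries with SCFA after TNF-α were all above those with SCFA before it. These groups also differ in time since TNF-α, which cannot be told apart from the order of treatment. Against TN the log2 difference was 0.39 ± 0.10 (SE) in TNPR and 0.26 ± 0.10 in TNBU (limma adjusted p = 0.00501 and 0.0460), and 0.03 and -0.07 in PRTN and BUTN (adjusted p = 0.836 and 0.591). Compared directly, TNPR exceeded PRTN by 0.36 (95% confidence interval 0.15 to 0.57, adjusted p = 0.195) and TNBU exceeded BUTN by 0.33 (0.11 to 0.55, adjusted p = 0.166), which did not pass the threshold across all genes. Under the alternatives the adjusted p was 0.141 to 0.628 for the first difference and 0.0364 to 0.528 for the second, lowest without TNBU replicate 1, where the difference was 0.43. There were 3.63 to 4.47 EZH2 counts per EZH1 count in Ctrl and TN, 4.78 to 5.32 in PRTN and BUTN, and 3.63 to 4.14 in TNPR and TNBU.

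The PRC2 core subunits SUZ12 and EED stayed near their levels in TN. SUZ12, which holds the complex together, had 80.5 and 73.9 CPM for TN, 89.4 and 90.8 for PRTN, 81.7 and 85.7 for BUTN, 81.0 and 79.1 for TNPR, 83.7 and 70.4 for TNBU, and 71.1 and 74.5 for Ctrl. Its log2 difference from TN was 0.22 in PRTN (adjusted p = 0.0281) and between -0.01 and 0.12 in the other SCFA groups. EED, the subunit that binds the methyl mark, had 52.1 and 51.4 CPM for TN, 48.5 and 46.1 for Ctrl, and 45.5 to 51.4 in the 8 SCFA libraries, with log2 differences from TN of -0.05, -0.04, -0.08 and -0.14. The limma adjusted p of EED was 0.491, 0.585, 0.279 and 0.0698. Among the alternatives that left out no TN or TNBU library, EED was past the looser rule as lower in TNBU without a filter on low counts and with edgeR's default filter. The pseudogene SUZ12P1 held 4.39 to 7.47 counts per 100 SUZ12 counts and EZH2P1 held none, and adding their counts to the parent genes changed no call.

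JARID2 was the only member called up. It had 20.1 and 20.4 CPM for Ctrl, 19.2 and 19.6 for TN, 37.9 and 38.7 for PRTN, 37.2 and 37.6 for BUTN, 38.7 and 37.7 for TNPR, and 36.9 and 34.8 for TNBU. The SCFA libraries did not overlap those of TN or Ctrl. Group means ordered as TN 19.4 ± 0.274 (SD, n = 2), Ctrl 20.2 ± 0.221, TNBU 35.8 ± 1.51, BUTN 37.4 ± 0.260, TNPR 38.2 ± 0.731 and PRTN 38.3 ± 0.584. The 4 pairs of SCFA groups compared (BUTN with PRTN, TNBU with TNPR, TNPR with PRTN and TNBU with BUTN) did not pass the test, with limma adjusted p of 0.697 to 0.992, and neither did TN against Ctrl. Against TN the rises were 1.97-fold, 1.93-fold, 1.97-fold and 1.84-fold in PRTN, BUTN, TNPR and TNBU, with log2 differences of 0.98, 0.95, 0.98 and 0.88 (SE 0.07 in each) and limma adjusted p of 1.32e-07, 2.26e-07, 1.31e-07 and 3.84e-07. JARID2 (chr6:15246069-15522042, + strand, GENCODE 44 on GRCh38) has more than 1 start, as the windows above show, and the counts are per gene, so that transcripts from the second start, with its TGACGTCA matches, were not told apart from the others.

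Of the RING proteins of PRC1, RNF2 was lower with SCFA, by less than 1.5-fold, and BMI1 lay near its level in TN. RNF2 had 63.2 and 59.3 CPM for TN, 46.0 and 46.0 for PRTN, 48.7 and 49.0 for BUTN, 44.2 and 47.8 for TNPR, and 46.6 and 43.2 for TNBU. All 8 SCFA libraries were below the 51.4 and 52.1 CPM of Ctrl. Log2 differences from TN were -0.41, -0.33, -0.41 and -0.45 (SE 0.07 in each), that is 1.25-fold to 1.37-fold lower, with limma adjusted p of 0.000174, 0.00112, 0.000163 and 9.49e-05. BMI1, the PCGF protein that partners RNF2 in canonical PRC1, had 30.5 and 30.8 CPM for TN, 28.0 and 29.1 for Ctrl and 30.0 to 34.8 in the SCFA libraries. Its log2 difference was 0.18 in TNBU (adjusted p = 0.0338) and at most 0.11 elsewhere, none over 1.5-fold. The read-through gene COMMD3-BMI1, which contains BMI1 exons, held 9.16 to 20.6 counts per 100 BMI1 counts, and adding it to BMI1 changed no call.

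The chromodomain subunits CBX2 and CBX8 moved apart. CBX2 had 33.6 and 31.7 CPM for Ctrl, 35.1 and 37.5 for TN, 50.2 and 49.8 for PRTN, 53.9 and 53.6 for BUTN, 47.5 and 42.4 for TNPR, and 51.8 and 47.3 for TNBU. CBX8 had 36.4 and 33.1 CPM for Ctrl, 30.0 and 30.9 for TN, 18.9 and 20.2 for PRTN, 20.1 and 20.5 for BUTN, 20.4 and 18.9 for TNPR, and 19.5 and 19.7 for TNBU. Neither gene's SCFA libraries overlapped those of TN or Ctrl. CBX2 was 1.38-fold, 1.48-fold, 1.24-fold and 1.36-fold higher than in TN in PRTN, BUTN, TNPR and TNBU, with log2 differences of 0.46, 0.57, 0.31 and 0.45 (SE 0.08 in each) and limma adjusted p of 0.000222, 4.41e-05, 0.00449 and 0.000310. CBX8 fell 1.56-fold, 1.502-fold, 1.55-fold and 1.56-fold, with log2 differences of -0.64, -0.59, -0.63 and -0.64 (SE 0.08 in each) and adjusted p of 1.52e-05, 3.66e-05, 1.74e-05 and 2.00e-05. CBX8 therefore sat close to the 1.5-fold threshold, most of all in BUTN. With scaling by library size alone, which moved the median of all genes by 0.15 to 0.20 toward higher values with SCFA, CBX8 was lower by 0.43 to 0.49 on the log2 scale and no longer called, and CBX2 was called up in PRTN, BUTN and TNBU.

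CBX2 and CBX8 are neighbours on chromosome 17 (GENCODE 44, GRCh38). CBX2 lies at chr17:79778148-79787983 on the + strand and CBX8 at chr17:79792132-79801683 on the - strand, 4.15 kb apart. The lncRNA gene that overlaps CBX8 by 1086 bases on the opposite strand had at most 0.145 CPM, and whether counting used strand is not given in the sources used here.

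**Figure D3:**
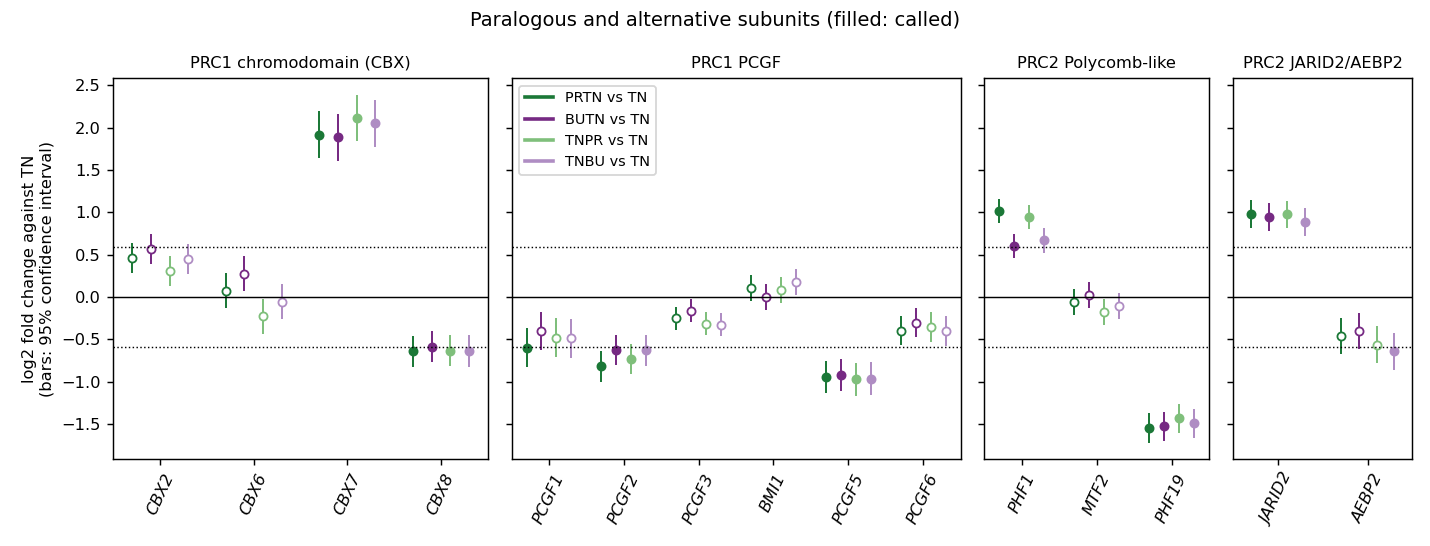
log2 fold change against TN (vertical axis, bars are 95% confidence intervals) of CBX, PCGF and Polycomb-like paralogs and of JARID2 and AEBP2 in the 4 SCFA groups, with dotted lines at 1.5-fold and filled points for called genes. CBX7 is highest and CBX8 lowest of the CBX genes shown, BMI1 lies highest of the PCGF genes, and PHF1 and PHF19 lie on opposite sides of 0.

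Some single genes of the wider families, CBX7 and PHF19 among them, differed from TN by more than any of the 9 members. Of the 4 chromodomain genes described here, CBX7 rose in all 4 SCFA comparisons, CBX8 fell, CBX2 was higher by less than 1.5-fold, and CBX6 (chosen after its values were seen) was not called. CBX7 had 4.93 and 4.57 CPM for TN, 5.36 and 5.11 for Ctrl and 17.2 to 21.2 in the SCFA libraries, with log2 differences of 1.92, 1.89, 2.11 and 2.05. Among 24 other PRC1 genes, 3, 3, 3 and 3 were called up and 6, 7, 9 and 8 down in PRTN, BUTN, TNPR and TNBU. The genes up in all 4 were CBX7, AUTS2 and BCORL1, and those down in all 4 were SCMH1, KDM2B, PCGF5, FBRS and PCGF2, which is 12.5% and 20.8% of the list against 18.4% and 11.9% of all tested genes. AUTS2, a subunit of PRC1 forms with PCGF3 or PCGF5, was low throughout, with 0.745 and 0.574 CPM for TN and 1.65 to 3.02 with SCFA. SCMH1, a PRC1-associated protein that the study listed under chromatin remodeling from these same libraries, had 34.5 and 36.7 CPM for TN and 13.8 to 17.6 with SCFA. KDM2B, which brings a PRC1 form to CpG islands, had 78.8 and 82.6 CPM for TN and 35.8 to 46.1 with SCFA, and PCGF5 78.8 and 75.1 CPM for TN and 36.1 to 43.0 with SCFA. The median of the list was -0.33, -0.25, -0.36 and -0.41 on the log2 scale, against 0.09, 0.08, 0.12 and 0.09 for all genes. With library size alone the number called down was 5, 4, 4 and 4, and PCGF2 was no longer among those down in all 4.

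Of 9 other PRC2 genes 8 could be tested, and EZHIP, which had a count of 0 in every library, could not. PHF1 rose and PHF19 fell in all 4 SCFA comparisons, both Polycomb-like proteins that guide PRC2 to chromatin. PHF19 had 88.0 and 94.9 CPM for TN, 104 and 101 for Ctrl and 30.1 to 35.0 with SCFA, with log2 differences of -1.55, -1.53, -1.43 and -1.49 (limma adjusted p = 5.82e-09 to 9.48e-09). PHF1 had 41.4 and 42.0 CPM for TN, 83.1 and 85.8 for PRTN, 62.6 and 63.8 for BUTN, 82.6 and 78.1 for TNPR, and 65.2 and 67.4 for TNBU. In BUTN the rise of PHF1 was 1.52-fold, and it was not past the threshold there without TN replicate 1, without TN replicate 2, without BUTN replicate 2, without a filter on low counts or with edgeR's default filter. MTF2, the remaining Polycomb-like gene, was chosen after its values were seen and was not called. AEBP2, a cofactor found in the same PRC2 form as JARID2, was called down in TNBU, with log2 differences of -0.46, -0.40, -0.56 and -0.64. It lay close to the threshold, and was also called in TNPR with edgeR's default filter, with only the groups compared, without TN replicate 2 and without TNPR replicate 1, and not in TNBU with library size alone or without TNBU replicate 2. None of the 4 pairs of SCFA groups compared passed the test for AEBP2 (limma adjusted p = 0.286 to 0.851).

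**Figure D4:**
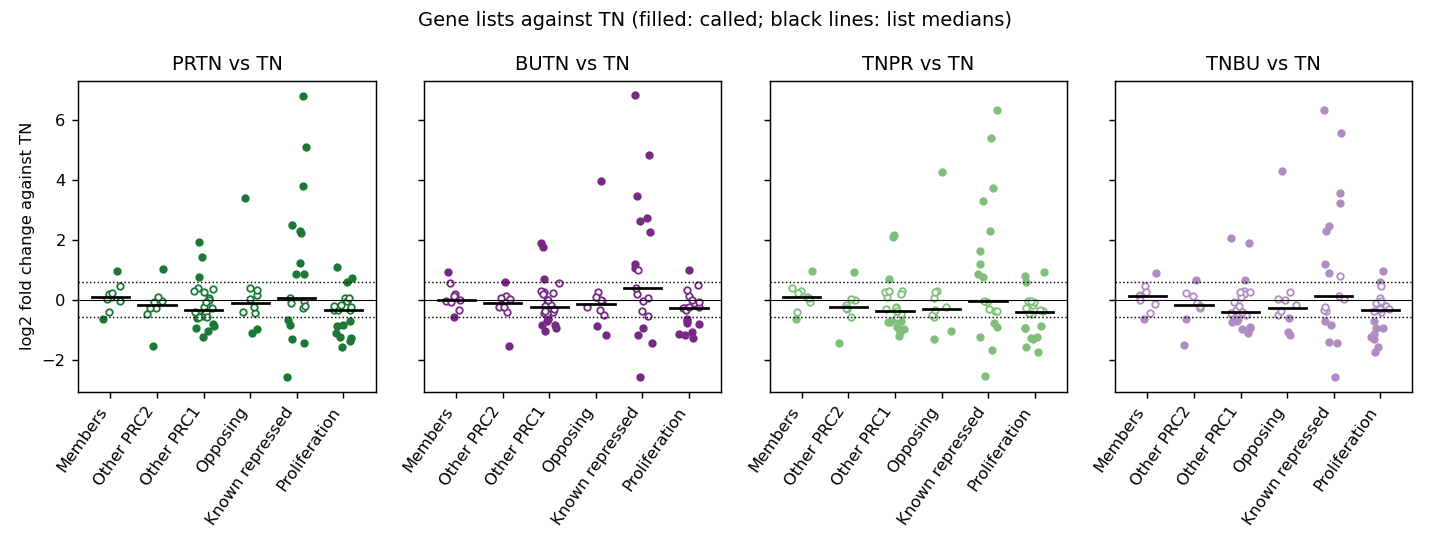
log2 fold change against TN (vertical axis) of the genes of 6 lists in the 4 SCFA groups, with filled points for called genes, black lines for list medians and dotted lines at 1.5-fold. The 9 members lie within a narrower band than the known repressed genes, and the points of ASXL3 and WNT1, which had a count of 0 in TN, are fitted values with no measured ratio.

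Genes of the BAP1 deubiquitinase complex and of the H3K27 demethylases, which work against Polycomb marks, were mostly not called. Of 10 such genes, 1 rose and 2 fell in all 4 SCFA comparisons (10% and 20%, against 18.4% and 11.9% of all tested genes), all of them ASXL genes. TNBU had 3 that fell, the other being the demethylase KDM6A (chosen after its values were seen), which was not called there with edgeR's quasi-likelihood test, DESeq2, relative log expression (RLE) size factors or library size alone, nor without TN replicate 1 or TNBU replicate 2. ASXL1 and ASXL2, partners of the deubiquitinase BAP1 that removes the PRC1 mark, fell from 302 and 313 to between 139 and 167 CPM, and from 91.8 and 88.6 to between 31.0 and 49.3 CPM. Their paralog ASXL3 had a count of 0 in both TN libraries and 4 to 11 counts with SCFA, at least 1.78-fold to 3.11-fold higher against a floor of 3 counts a library. ASXL3 passed the low-count filter only through the SCFA libraries, so that the 10% that rose rests on a gene that could not fall. The list median was -0.11, -0.13, -0.29 and -0.27, also with ASXL3 at its bound, and with library size alone it was above 0 in PRTN and BUTN.

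Genes that textbooks give as Polycomb-repressed moved in both directions. Of 20 listed genes 19 were tested, and 9, 8, 9 and 8 rose and 5, 4, 5 and 5 fell in PRTN, BUTN, TNPR and TNBU. The same 8 rose and the same 4 fell in all 4, which is 42.1% and 21.1% of those tested, against 18.4% and 11.9% of all tested genes. Genes at or near a count of 0 in TN, such as WNT1, passed the low-count filter through other libraries and could hardly fall. The share that rose can therefore not be read as a result about Polycomb-repressed genes. The number up in all 4 was 7 with DESeq2, 6 without TN replicate 1 and 7 without TN replicate 2. CDH1, the epithelial cadherin, had 2 and 4 counts in TN, 7 and 8.19 for Ctrl and 252 to 495 with SCFA, a ratio to TN of 126 in PRTN (95% exact interval 57.8 to 345), 128 in BUTN (58.7 to 350), 91.0 in TNPR (41.6 to 249) and 93.4 in TNBU (42.7 to 256), which cover counting error only. WNT1 had a count of 0 in both TN libraries and 17 to 27 counts with SCFA, at least 4.66-fold to 7.78-fold higher. SLIT2, a guidance ligand, had 1.23 and 2.01 CPM for TN and 16.7 to 24.1 with SCFA. In the other direction, HOXD10 had 23.5 and 22.8 CPM for TN and 3.20 to 4.79 with SCFA, and HOXA9 had 73.3 and 67.3 CPM for TN and 24.5 to 31.5 with SCFA. CDKN2B, a cell cycle inhibitor, had 30.1 and 30.6 CPM for Ctrl, 58.4 and 56.4 for TN and 17.4 to 25.7 with SCFA, and was the only gene of the Polycomb lists called in TN vs Ctrl, where it rose by 0.92 on the log2 scale (limma adjusted p = 3.33e-05). The list medians were 0.07, 0.39, -0.04 and 0.13 and moved with the settings, from -0.01 to 0.44 in PRTN, 0.26 to 0.67 in BUTN, -0.19 to 0.23 in TNPR and 0.03 to 0.38 in TNBU. The highest came without a filter on low counts, that of PRTN was below 0 without TN replicate 1 or PRTN replicate 1, and that of TNPR was above 0 without a filter, with library size alone (0.14) and without TNPR replicate 2 (0.01). No histone mark was measured in these libraries.

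Propionate and butyrate, at 15 mM and 3 mM, gave values for the members that the test did not separate. In BUTN vs PRTN 0 of 9 members were called in either direction (0.127% of all genes up and 0.0411% down), and in TNBU vs TNPR 0 of 9 (0.00822% and 0%), and none had an unadjusted p under 0.05 in these comparisons. The 95% confidence intervals of the members ran from 0.803-fold to 1.20-fold in BUTN vs PRTN and from 0.790-fold to 1.23-fold in TNBU vs TNPR, so that smaller differences could have been missed, and the doses were not matched. SCFA after against before TNF-α also gave 0 of 9 members called. This was so in TNPR vs PRTN (0.0534% of all genes up and 0.107% down) and in TNBU vs BUTN (0.0945% and 0.173%), where time since TNF-α differed as well. At an unadjusted p under 0.05 there were 2 in each, EZH1 and SUZ12 in TNPR vs PRTN and EZH1 and BMI1 in TNBU vs BUTN, and the intervals reached from 0.790-fold to 1.49-fold and from 0.814-fold to 1.46-fold.

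Per kilobase of the canonical transcript, EZH2 was the most abundant member in TN, with 35.7 ± 0.853 CPM per kb (SD, n = 2). EED followed with 24.8 ± 0.244, RNF2 with 18.0 ± 0.814, SUZ12 with 17.2 ± 1.03, BMI1 with 8.67 ± 0.0703, CBX8 with 8.12 ± 0.162, CBX2 with 7.85 ± 0.372, EZH1 with 4.71 ± 0.306 and JARID2 with 3.23 ± 0.0456. RNF2 and SUZ12, and CBX8 and CBX2, differed by less than the larger SD of each pair. In PRTN, JARID2 was no longer the lowest, at 6.38 ± 0.0973 CPM per kb above CBX8 at 5.21 ± 0.249 and EZH1 at 4.80 ± 0.00427. This order depended on the length used. Divided by the union of all annotated exons, which for EZH2 is 10774 bases instead of 2654, RNF2 led in TN with 15.7 ± 0.710 CPM per kb and EZH2 came after SUZ12 with 8.78 ± 0.210, and JARID2 and EZH1 were lowest with 3.11 ± 0.0438 and 3.12 ± 0.203, a gap within the SD.

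Across the 12 libraries the genes most like 3 of the members were sought among 10193 genes with a mean of at least 10 CPM, by Pearson's r of log2 CPM. For EZH1 they were SH3D21 (0.931), MIR210HG (0.920) and WDR27 (0.888), for EZH2 NEAT1 (0.971), RAD54B (0.960) and BPHL (0.955), and for CBX2 C15orf39 (0.989), TFPI2 (0.982) and RCAN3 (0.981). The points are the same 12 libraries, 8 of them with SCFA, and share their treatments. JARID2 and CBX8 had r = -0.966 over the same libraries, the largest in size of all pairs of members and named for that reason. They are the 2 members called with SCFA, and this r restates those calls. JARID2 and CBX2 had r = 0.915 and CBX2 and CBX8 -0.907. For SUZ12 and EED r was 0.496 and for EZH2 and EZH1 0.302.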

How the data were processed

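RNA from HK2 cells was sequenced in 12 libraries, 2 per group, on an Illumina instrument from stranded poly(A) libraries. The authors aligned reads to GRCh38 with STAR 2.6.1a and estimated with RSEM, on GENCODE release 26, the expected count of each gene, and these expected counts were deposited without normalization or filtering (19.3% of values are not whole). The strand setting of RSEM is not given in the sources used here. Here, genes with a geometric mean (1 added to each count, then subtracted) of at least 1 were kept, TMM factors (0.913 to 1.06) came from edgeR 4.0.16, and limma-voom 3.58.1 in R 4.3.3 was fitted to all 12 libraries with 1 mean per group. Genes at or near a count of 0 in Ctrl and TN pass the low-count filter only through the SCFA libraries and can then hardly come out as lower. All p-values are two-sided. A floor of 3 counts a library (0.0867 to 0.112 CPM) and exact intervals cover counting error only. Scripts were tested on simulated data. DESeq2 1.42.0 and edgeR's quasi-likelihood test, on rounded counts, other scalings and filters, a replicate block, summed near-identical genes and left-out libraries were the alternatives. The numbers of the replicates did not pair libraries, because deviations of same-numbered libraries correlated from -0.0458 to 0.109 over 15 pairs of groups, with 1 over 0.1. Besides the members, the text names per list the 3 genes with the largest mean change in each direction among those called in all 4 SCFA comparisons, markers, and the 3 genes most like EZH1, EZH2 and CBX2. FBRS, PCGF2, CBX6, MTF2, AEBP2, EZHIP, KDM6A, E2F1 and E2F2 were named after their values were seen. The members and lists were chosen with earlier results of these data known, and 1 gene of the PRC1 list is not reported here. Gene positions are from GENCODE release 44, which matched all 9 member identifiers.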

Additional observations from a re-analysis of the deposited data

How the results depend on the processing

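JARID2 was called up in all 4 SCFA comparisons under every alternative except a threshold of 2-fold, with log2 values from 0.80 to 1.15, and 0 members were called in TN vs Ctrl, between SCFAs or between times under any of them. With no fold threshold, 4, 3, 4 and 4 members were higher and 2 lower in PRTN, BUTN, TNPR and TNBU, respectively, and with 2-fold 0 and 0. Library size alone gave 2 up in PRTN, BUTN and TNBU and 0 down in all 4, and raised the share of up calls among all calls from 58.9% to 68.5% in PRTN, from 60.9% to 71.2% in BUTN, from 59.6% to 69.8% in TNPR and from 60.2% to 72% in TNBU. DESeq2 and relative log expression (RLE) size factors gave 0 down in BUTN, where CBX8 was at -0.57 with both. The replicate block gave 1 up and 1 down in each SCFA comparison, and with no fold threshold it gave 3 higher in TNBU, without EZH1. Leaving out 1 library gave 1 up and 1 down throughout.

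Values near 0 changed sign, none of them a call. With library size alone EZH2 was -0.0141 in TN vs Ctrl, EED 0.102, 0.1102, 0.0903 and 0.0524 in PRTN, BUTN, TNPR and TNBU, EZH1 0.0828 and BMI1 0.148 in BUTN, and SUZ12 0.188 in TNBU. BMI1 in BUTN was 0.0129 with DESeq2, 0.0117 with RLE factors and 0.0507 with COMMD3-BMI1 added. SUZ12 in TNBU was 0.0115 with DESeq2 and 0.00618 with RLE factors, and EZH1 in PRTN was -0.00815 with edgeR's default filter. With 1 library left out, log2 values ran from -0.0693 to 0.0642 for EZH1 in PRTN, from -0.0362 to 0.0878 for SUZ12 and from -0.00472 to 0.0757 for BMI1 in TNPR, and from -0.167 to 0.0935 for SUZ12 in TNBU. The causes were not tested. Only 2 replicates a group limit the precision, with standard errors of 0.06 to 0.10 for a member.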
